A study of Bos taurus with 6 samples.

Results

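The genes of the actin, myosin and tubulin cytoskeleton were followed in bovine blastocysts and bovine granulosa cells. Their probes were taken by the platform's gene symbol: those beginning with TUBA, TUBB, TUBG, ACTN, ACTR, ARPC, CAPZ, MYL, MYH, TMOD or CFL, those beginning with TPM and a digit, and those of the actins ACTA1, ACTA2, ACTB, ACTC1, ACTG1 and ACTG2. This gave 122 of the 43794 probes on the array, for 93 of the 15229 gene symbols. Of these, 108 probes for 82 genes were bright enough to be tested. CFLAR, a regulator of cell death, and MYLIP, a ubiquitin ligase, came in through their first letters and are no parts of the cytoskeleton. Both stay in the counts of cytoskeleton genes given below.

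The blastocysts were Holstein embryos made in vitro from oocytes of abattoir ovaries with mixed semen of several bulls, and were collected 7 days after fertilisation. The granulosa cells came from follicles over 5 mm across in lactating Holstein cows that had received 6 injections of 40 mg FSH (follicle-stimulating hormone), and were aspirated 44 h after the final injection. Both RNAs are pools, and the labels do not state the number of animals or embryos in them. Each of 6 arrays carried both amplified RNAs, the blastocyst RNA in Cy3 and the granulosa RNA in Cy5 on 3 arrays and the dyes exchanged on the other 3. Same-numbered arrays of opposite dye were averaged to 3 replicates. All ratios are log2 ratios of blastocyst over granulosa intensity, so that a positive value means more signal in blastocysts. Levels are normalized log2 intensities in one channel.

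The median raw intensity lay between 189 and 386 for Cy3 and between 177 and 210 for Cy5. Between 64.0% and 77.0% of probes exceeded background in the blastocyst channel, against 58.2% to 78.3% in the granulosa channel. Of 10 tested markers of trophectoderm and inner cell mass, 9 were higher in blastocysts. Of 10 tested granulosa markers, 4 were called towards granulosa cells and none was called the other way. NR5A2 lay on the blastocyst side, with a log2 ratio of 1.15 ± 0.74, but was not called (limma adjusted p = 0.111). The other tested markers of this list were on the granulosa side. FOXL2 exceeded background on no array in the granulosa channel. The granulosa pools differed in genes of other cell types. The mean level of 7 fibroblast and stroma markers was 8.56, 8.20 and 8.99 in the blastocysts of replicates 1, 2 and 3, against 11.1, 12.2 and 8.78 in the granulosa cells. Replicate 3 thus had the lowest stroma signal of the granulosa pools, and the same held for 6 leukocyte markers (7.31, 7.10 and 7.12 in blastocysts, 9.86, 8.98 and 7.52 in granulosa cells) and 5 endothelial markers (7.28, 7.21 and 7.25 in blastocysts, 8.90, 8.93 and 7.16 in granulosa cells). None of these 3 lists held a gene past the threshold between the cell types. The endothelial mean followed mainly KDR (12.16, 11.85 and 6.82 in granulosa cells) and TEK (9.60, 9.93 and 7.59). VWF and PECAM1 were also lowest in replicate 3 but by less, and CDH5 hardly varied (7.23, 7.27 and 7.27). In pools of RNA, fewer cells of a type and less RNA per cell cannot be told apart.

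Actin filaments are polymers that grow at their plus ends, branch where the Arp2/3 complex binds, are cut by cofilin, capped by capping protein and coated by tropomyosin. Non-muscle myosin, built of heavy chains with essential and regulatory light chains, pulls on them. Microtubules are polymers of paired alpha-tubulin and beta-tubulin, seeded by a ring that contains gamma-tubulin. In the blastocyst these filaments shape the polarised trophectoderm, and in granulosa cells FSH is known to rearrange the actin cytoskeleton as the cells round up and make steroids.

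A limma fit across all probes gave the calls, which needed an adjusted p under 0.05 together with a difference of at least 2-fold, a log2 ratio of 1 or more in size. By its brightest probe, 13 of the 82 tested cytoskeleton genes passed, beside 13.4% of all 13227 genes tested. In blastocysts 8 were higher (5.72% of all genes), and in granulosa cells 5 were higher (7.68% of all genes). The share called among the cytoskeleton genes, 15.9%, was thus near that of the whole array. The genes higher in blastocysts were ACTN1, MYL7, MYL12B, CFL1, ARPC2, ARPC5L, TUBA3E and TUBA3D, and those higher in granulosa cells were TPM2, TUBB6, MYL6B, ACTR10 and ARPC5. Across all 82 genes the median ratio was 0.08, beside -0.02 over all genes, and the median absolute ratio 0.37, beside 0.27. Each of the 13 had the same sign on all 6 arrays, which their selection on these same arrays favours. Counted by probe, 19 of the 108 tested probes passed (10.1% of all probes tested), 12 of them towards blastocysts (4.95%) and 7 towards granulosa cells (5.19%). When the 6 arrays were fitted one by one with the replicate number as a block, 10 genes were called towards blastocysts and 9 towards granulosa cells, and these 19 included all 13. In that fit 19.2% of all genes passed. The estimated correlation within blocks was -0.0026, so the 6 arrays counted almost as independent replicates. Without a block these counts were the same. The mean ratios are those of the main fit, so the overlap is no separate support.

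**Figure D1:**
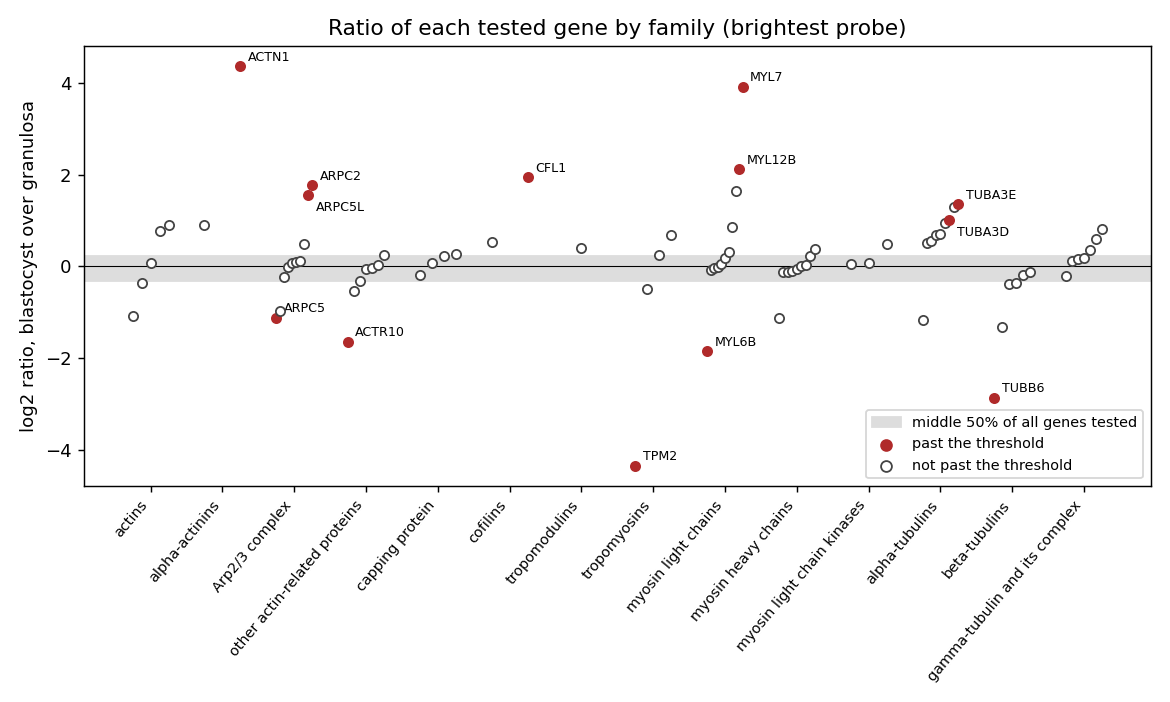
Log2 ratio of blastocyst over granulosa (vertical axis) for each tested gene, by its brightest probe, in 14 families along the horizontal axis (CFLAR and MYLIP are not drawn). Filled points are the 13 genes past the threshold, open points the others, and the grey band holds the middle 50% of all genes tested. Alpha-tubulins lie mostly above 0 and beta-tubulins all below it.

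The number of calls changed with the replicate left out. With replicate 2 left out no gene passed in limma, of the cytoskeleton or of the whole array, although 30 cytoskeleton genes and 3889 genes in all had an unadjusted p under 0.05. With replicate 1 left out 10 cytoskeleton genes passed, 7 of them among the 13, and with replicate 3 left out 12 passed, 10 of them among the 13. ACTR10, MYL12B, TPM2, ARPC5L, MYL7 and MYL6B lost their call only without replicate 2 among the replicates left out.

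**Figure D2:**
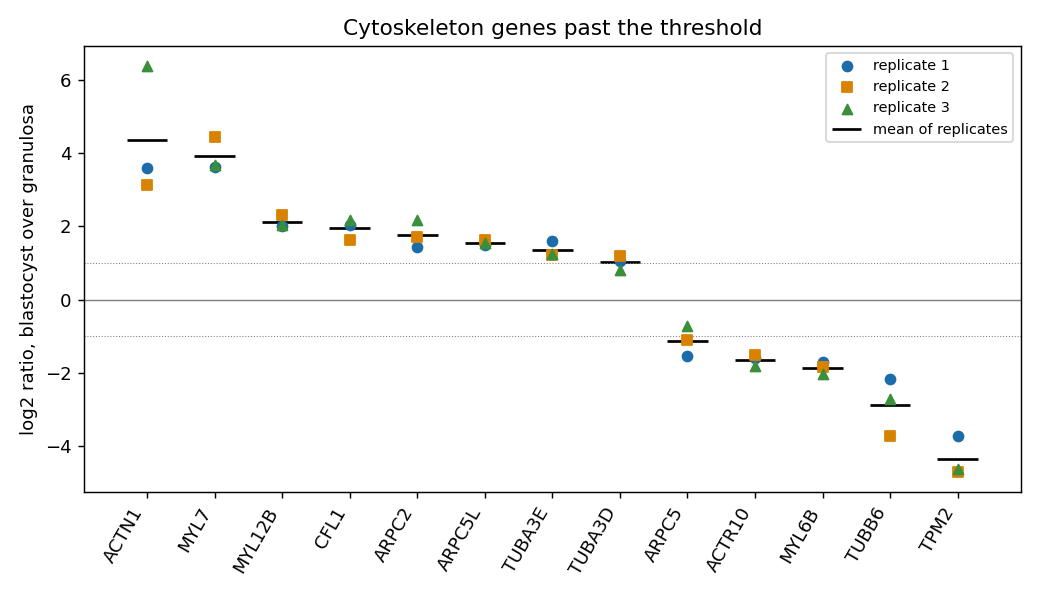
Log2 ratio of blastocyst over granulosa (vertical axis) in each of the 3 replicates, for the 13 genes past the threshold. Symbols mark the replicates, black bars their mean, and dotted lines the 2-fold limits. All 3 replicates of every gene lie on the same side of 0, which selection on these values favours, and ACTN1 spreads most.

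ACTB encodes beta-actin, the main cytoplasmic actin with gamma-actin, and is often taken as a reference for other transcripts. Its level was 9.38, 9.38 and 9.40 in the blastocysts of replicates 1, 2 and 3, against 8.37, 8.74 and 8.74 in the granulosa cells. All ACTB values rest on 1 tested probe. That probe exceeded background on all 6 arrays in both channels but was far dimmer than the ACTG1 probe described below. Whether it reflects the whole ACTB message was not tested. The blastocyst values were nearly alike, the granulosa value of replicate 1 was lower than the other two, and the groups did not overlap. The ratio was 1.02, 0.64 and 0.65 in replicates 1, 2 and 3, and positive on all 6 arrays, between 0.63 and 1.07. The mean was 0.77 ± 0.22 (SD, n = 3), a 1.71-fold higher signal in blastocysts, with an adjusted p of 0.0311. ACTB thus had an adjusted p under 0.05, as did 21.3% of all genes at any ratio, but stayed under the 2-fold limit. On leaving out any one replicate its adjusted p was 0.0595 or more. Its absolute ratio exceeded that of 73.2% of all genes tested, while its SD over replicates exceeded that of 52.6%. The ratios of the replicates did not pass the F test for a difference between them (adjusted p = 0.276, where 15.5% of all genes passed). They passed once a dye term was added to the fit (adjusted p = 0.0241, where 48.3% of all genes passed).

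Among 14 tested genes that are often used as references, 1 was called (7.14%). This was PGK1, a glycolytic enzyme, at -1.54 ± 0.28 (adjusted p = 0.0144). Ranked with these 14 and ACTG1 by absolute ratio, smallest first, ACTB stood at place 14 of 16. The only larger values belonged to PGK1 and to B2M, the light chain of class I histocompatibility molecules, whose ratio of -1.97 ± 1.71 came from replicates 1 and 2 (-3.10 and -2.80) and not from replicate 3 (-8.21e-05). The elongation factor genes EEF1A2 and EEF1A1 lay at -0.03 ± 0.05 and -0.09 ± 0.11, and the EEF1A2 probe was dim, with levels of 7.18 to 7.33 on single arrays. SDHA, a mitochondrial dehydrogenase subunit, averaged 0.06 but with an SD of 0.69 over replicates, so its mean near 0 does not reflect like replicates. The SUZ12 ratio was 0.23 ± 0.64, H2AZ1 0.29 ± 0.36, TBP 0.37 ± 0.46 and YWHAZ -0.28 ± 0.23. The ribosomal protein gene RPLP0 was at -0.40 ± 0.15, PPIA at 0.53 ± 0.14, GUSB at 0.66 ± 0.15, RPS18 at -0.73 ± 0.21 and HPRT1 at -0.73 ± 0.28. PPIA, GUSB and RPS18, like ACTB, had an adjusted p under 0.05 below the 2-fold limit. The PPIA ratio depended on the dye, however. With blastocyst RNA in Cy3 it was 0.0036, 0.020 and 0.16 in replicates 1, 2 and 3. With blastocyst RNA in Cy5 it was 1.12, 0.74 and 1.14. The EEF1A1, RPLP0 and PPIA probes were near the scanner's upper limit on all 6 arrays, which may hold their ratios near 0. The B2M probe was near it on 4. Only the brightest probe of each gene is given. RPLP0 had 12 tested probes, PPIA, TBP and SUZ12 had 3 each, and EEF1A1 and B2M had 2 each. The place of ACTB thus rests in part on probes near the limit, and on 1 probe for ACTB itself.

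**Figure D3:**
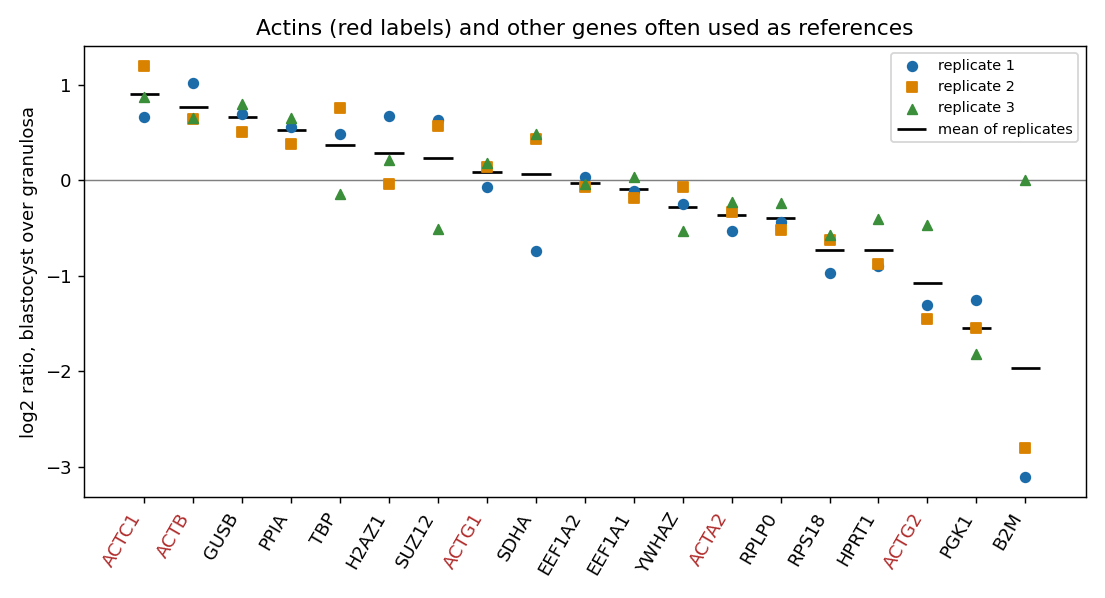
Log2 ratio of blastocyst over granulosa (vertical axis) in each of 3 replicates for the 5 tested actin genes (red labels) and 14 other genes often used as references. Black bars are means. ACTB lies above 0 in all 3 replicates, at 0.64 to 1.02, and ACTG1 lies near 0.

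Expressing every ratio relative to that of ACTB on the same array, an alternative chosen after the data were seen, moved the median ratio of all genes to -0.79. Then 31.4% of all genes passed. Of these calls 9.71% were higher in blastocysts, against 42.7% without that step. Of the 81 other cytoskeleton genes, 4 were then called towards blastocysts and 18 towards granulosa cells. This shift follows by arithmetic, because the positive ACTB ratio (0.77 on average) was subtracted from every ratio. The ACTB ratio is itself relative to a normalization that centres most genes near 0.

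ACTG1, which encodes gamma-actin, had ratios of -0.08, 0.14 and 0.18, a mean of 0.08 ± 0.14 (adjusted p = 0.487). Its probe was close to the scanner limit on every array, at levels of 15.16, 15.14 and 15.23 in blastocysts and 15.23, 15.00 and 15.04 in granulosa cells, so a true difference could have been compressed. The ACTB ratio exceeded that of ACTG1 in every replicate, by 0.69 ± 0.35 on average. Over 3 replicates an exact two-sided sign-flip test cannot give less than its p of 0.25 here.

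The muscle-type actins also lay under the threshold. ACTC1, the cardiac alpha-actin, had ratios of 0.66, 1.19 and 0.87, a mean of 0.91 ± 0.27 (adjusted p = 0.0326). Its level was 8.68, 9.15 and 8.63 in blastocysts, against 8.02, 7.96 and 7.76 in granulosa cells, so the groups did not overlap. ACTA2, the smooth muscle alpha-actin, had ratios of -0.53, -0.34 and -0.22, a mean of -0.36 ± 0.16 (adjusted p = 0.0749). ACTG2, the enteric smooth muscle gamma-actin, had levels of 9.36, 9.37 and 8.81 in blastocysts, against 10.66, 10.83 and 9.27 in granulosa cells. Its ratios were -1.30, -1.46 and -0.46, a mean of -1.07 ± 0.53 (adjusted p = 0.0737). The granulosa pool of replicate 3 had the lowest ACTG2 signal of the 3. The mean level of 5 tested smooth muscle and pericyte markers outside the cytoskeleton set was 7.11, 7.31 and 7.75 in blastocysts, against 7.61, 8.23 and 7.59 in granulosa cells. The replicate 2 value came from CNN1 (8.00, 10.61 and 8.04 in granulosa cells), while RGS5 was highest in replicate 1 and DES, SMTN and TAGLN in replicate 3. LMOD1 was above background on no array in the granulosa channel. Their part in the ACTG2 ratio was not tested. ACTA1 was too dim to be tested. Actin messages are alike over long stretches, and the probe sequences were not used here, so signal of one actin on the probe of another cannot be told apart.

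ACTN1 encodes alpha-actinin, which ties actin filaments into bundles and anchors them at junctions, and it had the largest ratio of the cytoskeleton genes. Its level was 15.04, 15.06 and 15.09 in blastocysts, against 11.43, 11.94 and 8.72 in granulosa cells. The groups did not overlap, and the blastocyst values were near the scanner's upper limit on all 6 arrays. The granulosa level of replicate 3 was far below those of replicates 1 and 2. The ratios of 3.60, 3.12 and 6.37 gave a mean of 4.36 ± 1.75 (adjusted p = 0.0495). They differed between replicates by the F test (adjusted p = 0.00705), and the call was lost without replicate 1, without replicate 2, without background subtraction and without the filter on dim probes. ACTN4, the other non-muscle alpha-actinin, had a ratio of 0.89 ± 0.36 (adjusted p = 0.0522), with its second probe at 0.23. ACTN2 and ACTN3 were too dim.

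The Arp2/3 complex starts new actin branches. Of its 10 genes, 2 were higher in blastocysts, 1 was higher in granulosa cells and 7 were not called. ARPC2, one of the core subunits, had levels of 12.96, 13.10 and 13.03 in blastocysts, against 11.53, 11.39 and 10.86 in granulosa cells. The groups did not overlap, and the ratio was 1.77 ± 0.38 (adjusted p = 0.0175). That call was lost without replicate 1 and without replicate 2.

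The ARPC5 and ARPC5L proteins are alternative forms of the smallest subunit, and their messages moved in opposite directions. ARPC5L had levels of 10.89, 11.04 and 11.37 in blastocysts, against 9.40, 9.42 and 9.83 in granulosa cells. Its ratios of 1.49, 1.62 and 1.54 were close together, with a mean of 1.55 ± 0.06 (adjusted p = 0.00499), and its second probe was at 0.98 (adjusted p = 0.00765). ARPC5 had levels of 13.65, 14.05 and 14.21 in blastocysts, against 15.19, 15.15 and 14.93 in granulosa cells, where it was near the scanner limit. Its ratios were -1.53, -1.10 and -0.72, a mean of -1.12 ± 0.41 (adjusted p = 0.0436). The ARPC5 call was lost on leaving out any one replicate, and also under median centring, with the deposited net intensities and on the arrays with blastocyst RNA in Cy5. The ARPC5L ratio exceeded that of ARPC5 by 3.03, 2.71 and 2.27 in replicates 1, 2 and 3, a mean of 2.67 ± 0.38 (exact sign-flip p = 0.25, the smallest that 3 replicates allow).

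ARPC1A and ARPC1B, alternative forms of another subunit that lie next to each other in the RefSeq annotation, gave no such clear difference. ARPC1B had levels of 7.49, 7.45 and 7.72 in blastocysts, against 9.25, 8.67 and 7.64 in granulosa cells. It was thus brighter in the granulosa cells of replicates 1 and 2 alone, with ratios of -1.77, -1.22 and 0.08, and these differed between replicates (adjusted p = 0.0079). The mean was -0.97 ± 0.95 (adjusted p = 0.213), and ARPC1A was at -0.23 ± 0.14. The other subunits had ratios of 0.50 for ACTR3, 0.10 for ACTR2, 0.07 for ARPC3 and -0.01 for ARPC4.

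Among the actin-related proteins outside this complex, 1 of 7 genes was called. ACTR10, a subunit of dynactin, the partner of the motor dynein, had levels of 9.83, 9.99 and 10.07 in blastocysts, against 11.43, 11.50 and 11.88 in granulosa cells. The groups did not overlap, and the ratio was -1.64 ± 0.16 (adjusted p = 0.00752). ACTR1A and ACTR1B, which form the filament of dynactin, were at -0.04 and 0.24. ACTR8, a subunit of a chromatin remodeller, was at -0.54.

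CFL1, the non-muscle cofilin that cuts actin filaments, was higher in blastocysts. Its level was 14.73, 14.08 and 14.05 in blastocysts, against 12.70, 12.46 and 11.87 in granulosa cells. The lowest blastocyst value exceeded the highest granulosa value, and the ratio was 1.95 ± 0.29 (adjusted p = 0.0108), a call lost without replicate 1 and without replicate 2. CFL2, the muscle cofilin, had ratios of -0.14, 1.00 and 0.75, a mean of 0.54 ± 0.60 (adjusted p = 0.253). Capping protein, which closes filament ends, gave no call in 4 genes: CAPZA1 was at 0.27, CAPZB at 0.23 and CAPZA2 at -0.18. The second CAPZA2 probe had the opposite sign, at 0.44 (adjusted p = 0.0452). Of the tropomodulins, which cap the other end, only TMOD1 was bright enough, at 0.40.

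Tropomyosins lie along actin filaments and govern which proteins may bind. TPM2 was the cytoskeleton gene with the largest ratio towards granulosa cells. Its level was 8.29, 7.96 and 8.54 in blastocysts, against 12.00, 12.64 and 13.15 in granulosa cells. The groups lay far apart in every replicate, with ratios of -3.71, -4.69 and -4.61 and a mean of -4.34 ± 0.54 (adjusted p = 0.00837). Of its other 3 probes, 2 were also called, at -2.80 and -1.42, and the dimmest was at -0.09. All 4 TPM2 probes were negative, but they differed in size, and the sources used here do not say which transcript forms each detects.

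None of the other 3 tropomyosin genes was called by its brightest probe. TPM4 had a ratio of 0.69 ± 0.29 (adjusted p = 0.0596) by its brightest probe, which was near the scanner limit on every array. The remaining TPM4 probes were at 3.10 (adjusted p = 0.00592) and 0.92 (adjusted p = 0.00999), the first of them called. With TPM4 near the scanner limit, the size of its difference from TPM2 is not given. TPM1 was at -0.48 ± 0.21, negative in all 3 replicates like TPM2 but much smaller, and TPM3 had ratios of 0.27, 1.13 and -0.64.

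Myosin light chains gave 3 calls among 11 genes, 2 towards blastocysts and 1 towards granulosa cells. MYL7, the regulatory light chain known from the heart atrium, had levels of 11.50, 12.33 and 11.31 in blastocysts, against 7.89, 7.90 and 7.62 in granulosa cells. The lowest blastocyst level was above every granulosa level, and the ratio was 3.91 ± 0.45 (adjusted p = 0.00774). A second MYL7 probe was called at 2.70, and the dimmest, above background on 1 of 6 arrays in the granulosa channel, was at 0.30. The mean level of 4 tested skeletal and cardiac muscle markers outside the cytoskeleton set stayed between 7.23 and 7.28 in blastocysts and between 7.30 and 7.36 in granulosa cells, and none of the 4 was called.

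MYL12A and MYL12B encode the regulatory light chains of non-muscle myosin and are neighbours in the RefSeq annotation. MYL12B had levels of 12.17, 11.37 and 11.38 in blastocysts, against 10.16, 9.06 and 9.34 in granulosa cells. The groups did not overlap, and the ratio was 2.12 ± 0.16 (adjusted p = 0.00603). MYL12A was at 0.86 ± 0.29 (adjusted p = 0.0401) by its brightest probe, whose raw signal was near the scanner limit on every array. The remaining 3 MYL12A probes were at 0.89, 1.35 and 1.85, and the last 2 of these were called. MYL9, the regulatory light chain of smooth muscle and non-muscle myosin, was also on the blastocyst side, with ratios of 0.85, 1.96 and 2.09. Its mean of 1.63 ± 0.68 was not called (adjusted p = 0.0538). The MYL9 granulosa level was 13.15, 11.70 and 11.31 in replicates 1, 2 and 3, and the ratios differed between replicates (adjusted p = 0.0136).

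MYL6 and MYL6B, neighbouring genes for essential light chains, differed in their ratios. MYL6B had levels of 7.41, 7.40 and 7.71 in blastocysts, against 9.10, 9.22 and 9.74 in granulosa cells. The ratio was -1.85 ± 0.17 (adjusted p = 0.00716), with no overlap of the groups. MYL6 was measured by 11 probes, all positive, at 0.12 to 0.76. All 11 had their highest ratio in replicate 2, none was called and 1 had an adjusted p under 0.05. The brightest MYL6 probe was at 0.17 ± 0.13, and its ratio exceeded that of MYL6B by 2.02 ± 0.18 (exact sign-flip p = 0.25, the smallest possible).

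**Figure D4:**
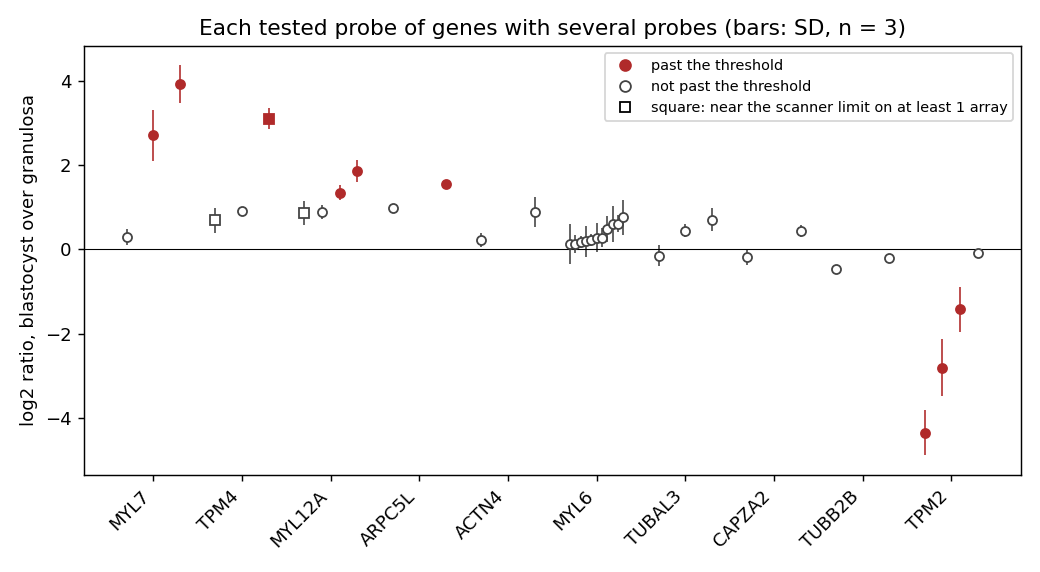
Log2 ratio of blastocyst over granulosa (vertical axis) for each tested probe of the 10 genes with several tested probes. Points are means of 3 replicates, bars their SD, filled points probes past the threshold, and squares probes near the scanner limit on at least 1 array. Probes of MYL7, TPM2 and TPM4 differ widely in size, and the 11 MYL6 probes lie between 0.12 and 0.76.

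Myosin heavy chains, which carry the motor, gave no call in 9 tested genes, and their ratios ran between -1.12 and 0.38. By the F test 10 cytoskeleton genes in all, MYLIP counted among them, differed between replicates. This was 12.2% of those tested, beside 15.5% of all genes. With a dye term 39 differed, beside 48.3% of all genes. MYH9, the main non-muscle heavy chain of many cells, was at 0.01 ± 0.14. MYH10 was too dim to be tested. MYH11, the smooth muscle heavy chain, exceeded background on 0 arrays in the blastocyst channel and on 4 in the granulosa channel. Its measured fold was 2.17 towards granulosa cells, with ratios of -1.70, -1.15 and -0.50 in replicates 1, 2 and 3. The mean ratio was not called (adjusted p = 0.0846). MYH11 had granulosa levels of 8.58, 7.95 and 7.09 in replicates 1, 2 and 3.

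MYLK, the kinase that switches the regulatory light chains on, had levels of 7.76, 7.99 and 8.24 in blastocysts, against 8.04, 7.84 and 6.68 in granulosa cells. The groups overlapped. Its ratios were -0.27, 0.15 and 1.56, and they differed between replicates (adjusted p = 0.00279). The ubiquitin ligase gene MYLIP had ratios of -3.26, -2.37 and -1.30, which also differed (adjusted p = 0.00435), and a mean of -2.31 ± 0.98 (adjusted p = 0.0544).

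Alpha-tubulins lay mostly on the blastocyst side: 8 of 9 tested genes had a positive ratio, as did 6162 of all 13227 genes, and 2 were called (22.2%, beside 13.4% of all genes). TUBA3E had levels of 11.81, 12.09 and 12.09 in blastocysts, against 10.22, 10.87 and 10.83 in granulosa cells, and a ratio of 1.35 ± 0.21 (adjusted p = 0.0118). TUBA3D had levels of 12.39, 12.99 and 12.93 in blastocysts, against 11.33, 11.80 and 12.13 in granulosa cells, and a ratio of 1.02 ± 0.20 (adjusted p = 0.0179). In neither gene did the groups overlap. TUBA3E lost its call without replicate 2 and without replicate 3. TUBA3D lost it without replicate 1, without replicate 2 and on the arrays with blastocyst RNA in Cy3. TUBA1D, at 1.28 ± 0.55 (adjusted p = 0.0573), was not called. TUBA1C was at 0.94 ± 0.17 (adjusted p = 0.0162) and TUBA1B at 0.56 ± 0.07 (adjusted p = 0.0167), both below the 2-fold limit. TUBA1A, near the scanner limit on all 6 arrays, was at 0.69 ± 0.34, TUBAL3 at 0.71 ± 0.28 and TUBA8 at 0.51 ± 0.40. The other TUBAL3 probes were at 0.44 and -0.15. Alpha-tubulin messages are much alike in their coding part, so the probes of these genes may share signal.

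The exception was TUBA4A, whose ratios were -3.17, -1.03 and 0.69 in replicates 1, 2 and 3. Its level was 11.46, 11.35 and 11.48 in blastocysts, against 14.63, 12.38 and 10.80 in granulosa cells. The blastocyst values were alike while the granulosa values covered a wide range, and the groups overlapped. The mean of -1.17 ± 1.93 was not called (adjusted p = 0.393), and the replicates differed (adjusted p = 0.00303). TUBA4A, ARPC1B, MYH11, MYLK, MYL9 and MYLIP had their highest granulosa level in replicate 1 and their lowest in replicate 3. Of the remaining 4 genes that differed between replicates, ACTN1 was also lowest in replicate 3 but highest in replicate 2, TUBB3 was highest in replicate 2, CFL2 lowest in replicate 2 and TPM3 highest in replicate 3. The mean of the leukocyte markers had its highest granulosa level in replicate 1 and its lowest in replicate 3, with 6 of 8 tested and ITGAM above background on no array in the granulosa channel. Of the 2 tested erythroid markers, HBB had granulosa levels of 12.97, 8.85 and 8.95 and HBA of 7.36, 7.23 and 7.01. The stroma list, with 7 of 7 tested, was lowest in replicate 3 too. The part of such cells in these ratios was not tested.

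**Figure D5:**
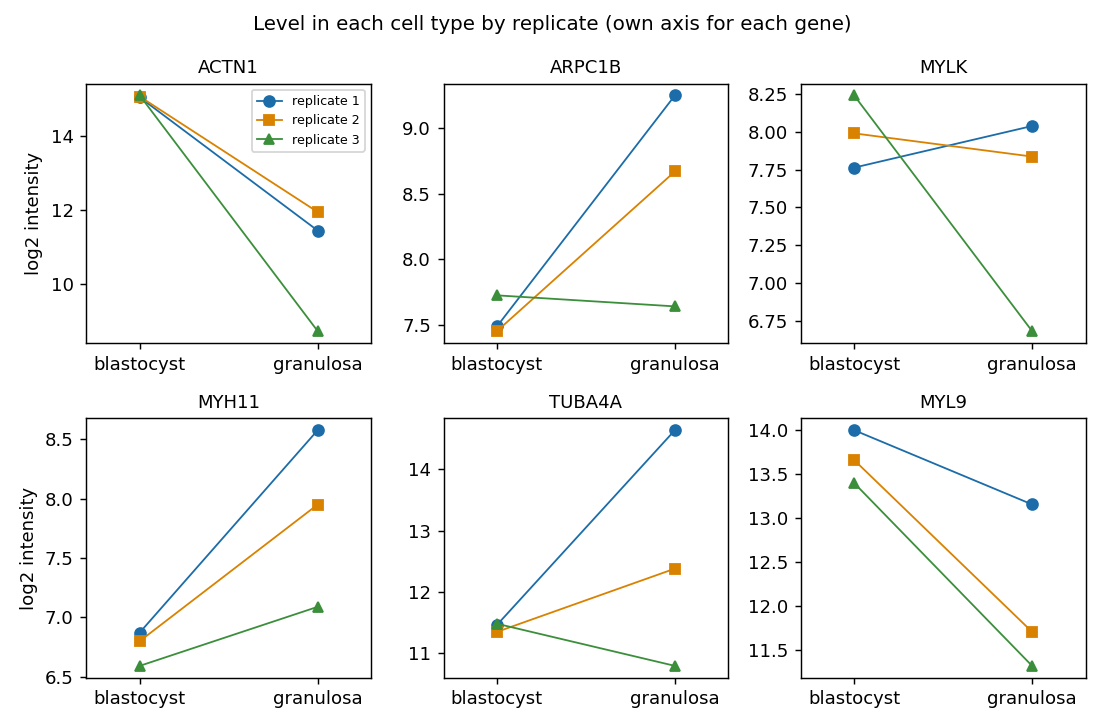
Normalized log2 intensity (vertical axis, own range for each gene) in blastocysts (left) and granulosa cells (right) of replicates 1 to 3, joined by lines, for 6 genes whose ratios differed between replicates. For ACTN1, ARPC1B and TUBA4A the granulosa values spread more than the blastocyst values, with replicate 3 lowest.

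None of the 6 tested beta-tubulins had a positive ratio, where 6162 of all 13227 genes did, and 1 was called (16.7%, near the 13.4% of all genes). TUBB6 had levels of 9.18, 8.67 and 8.93 in blastocysts, against 11.33, 12.39 and 11.63 in granulosa cells. The groups did not overlap, and the ratios of -2.16, -3.72 and -2.70 gave a mean of -2.86 ± 0.80 (adjusted p = 0.0263). That call was lost on leaving out any one replicate. TUBB3, the form known from neurons, was at -1.32 ± 0.60 (adjusted p = 0.0634), TUBB at -0.38 ± 0.09 (adjusted p = 0.0388), TUBB4B at -0.36 ± 0.11 and TUBB2B at -0.19 ± 0.04. TUBB1 was at -0.13 ± 0.06 and positive on 2 of 6 arrays. The granulosa levels of TUBB (8.65, 9.04 and 9.06) and TUBB2B (8.66, 9.13 and 9.16) were alike. Signal shared between beta-tubulin probes was not tested, so the 6 genes may not be separate measurements.

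The gamma-tubulin ring gave no call in 7 genes. The neighbouring genes TUBG1 and TUBG2, for gamma-tubulin itself, were at 0.36 ± 0.14 and -0.21 ± 0.38. Of the ring's other subunits, TUBGCP4 was at 0.82 ± 0.26 (adjusted p = 0.0361) and TUBGCP3 at 0.59 ± 0.64.

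Genes that act on these filaments were counted as well. Of 48 tested regulators of actin nucleation, turnover and crosslinking, 8 were called towards blastocysts and 3 towards granulosa cells, 22.9% in all, and the median ratio of the 48 was 0.44. Over all genes 13.4% were called, 5.72% towards blastocysts and 7.68% towards granulosa cells, with a median of -0.02. WIPF1 (2.81 ± 1.96) and PDLIM1 (2.38 ± 1.01), picked out here for their size, were not called. Among the 8 called towards blastocysts, the 6 with the largest ratios were DSTN, a relative of cofilin (2.73 ± 0.22), TAGLN2, a transgelin (2.70 ± 0.69), CORO1C, a coronin (2.64 ± 0.56), ENAH, which extends filaments (2.32 ± 0.36), CNN2, a calponin (2.18 ± 0.63), and DIAPH3, a formin (2.06 ± 0.49). Those higher in granulosa cells were PFN2, a profilin that delivers actin monomers (-3.67 ± 0.82), PLS3, a bundling plastin (-2.89 ± 0.61), and CNN3, another calponin (-1.38 ± 0.37). Members of the calponin family were thus found on both sides, as were those of the light chains and the Arp2/3 complex.

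Of 45 tested microtubule regulators and motors, 7 passed (15.6%, near the 13.4% of all genes), and the median ratio was -0.13, beside -0.02 over all genes. MAP7, which binds microtubules and recruits kinesin, CLIP1, a plus-end protein, and KIF5B, a kinesin heavy chain, were higher in blastocysts, at 2.53 ± 0.60, 1.70 ± 0.31 and 1.60 ± 0.16. STMN1, which binds free tubulin, stood at -2.36 ± 0.06 and MAP1LC3A at -1.63 ± 0.04, and both were higher in granulosa cells with little spread between replicates. DYNLT1, a dynein light chain (-1.61 ± 0.50), and MAP1A (-1.37 ± 0.27) were also higher in granulosa cells.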

How the data were processed

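RNA of both cell types was amplified, labelled with Cy3 and Cy5 and hybridised together on 6 oligonucleotide arrays, per the labels' protocols. Per the file headers, the deposited intensity columns hold raw means and local background medians of the spots at 532 nm for Cy3 and 635 nm for Cy5, not normalized. The authors' deposited value table is a score without a stated unit: it equals the quotient of the channels' log2 net intensities (100% of values within 1e-04), turned negative for arrays titled blastocyst, so it is no log ratio. Its column medians were -0.998, -0.998 and -1.00 on blastocyst arrays and 1.00, 0.999 and 1.00 on granulosa arrays. It was not used for ratios. After this match its scale, centring and direction are known.

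Computation was done in R 4.3.3 with limma 3.58.1 and plotting in Python 3.11.15 with matplotlib 3.10.9. Intensities were background-corrected (normexp, offset 50), loess-normalized within arrays and, for levels, scaled by Aquantile. Probes above the 95th percentile of 153 negative control spots on at least 3 arrays in either cell type were tested (35034 of 43794, 80.0%). Every adjusted p, that of the F test included, is Benjamini-Hochberg over these probes in lmFit and eBayes (3.35 degrees of freedom for the mean ratio). The fit was tested on simulated data. The number of arrays limits the precision, and p-values measure the spread between 3 pools, which may be partly technical. Deviations of same-numbered arrays correlated at 0.84 to 0.93, others at -0.59 to -0.20, so numbers taken from the titles were treated as pairs. A gene is represented by its brightest probe.

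The platform annotation names 1 gene for 21790 probes and none for 22004. Symbols were updated through RefSeq (ARS-UCD2.0): 20068 were current, 1524 synonyms and 198 older. The files name no build, so no coordinates are given. A raw intensity over 30000 is called near the scanner limit, a value set after the data were seen, and such ratios may be understated.

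The members and lists were chosen with earlier results of these data known. By rule, values per replicate are given for actins and called members, and means for up to 6 called regulators in each direction by size and for every reference gene. Other members were named after their values were seen. One further list of regulators is not reported here.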

Additional observations from a re-analysis of the deposited data

How the results depend on the processing

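The count of cytoskeleton genes higher in blastocysts (8) became 13 on the arrays with blastocyst RNA in Cy5 alone and 4 relative to ACTB, and lay between 0 and 8 when a replicate was left out. It was 12 under median centring and 7 to 10 in the remaining settings. The count higher in granulosa cells (5) became 9 without normalization, which moves the median of all genes to -0.21, 9 with the replicate block, 9 with the replicate block and a dye term, 9 without a replicate block on 6 arrays and 18 relative to ACTB. It lay between 0 and 4 when a replicate was left out, and between 4 and 7 in the remaining settings. The estimated correlation within blocks was -0.0026, and 0.66 with a dye term. All genes past the threshold (1773) were 0 to 1309 when a replicate was left out, 4150 relative to ACTB and 1478 to 2540 in the remaining settings. The F test called 39 cytoskeleton genes with a dye term, against 10 without.

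ACTB kept its sign in all 16 alternatives, at 0.65 to 0.85. Several of these could not move its ratio of 0.77. They changed only the filter or the choice among probes, where ACTB has 1, or fitted all 6 arrays, which keeps the mean. The adjusted p of ACTB was 0.0595, 0.120 and 0.0944 without replicates 1, 2 and 3, and under 0.05 in the other alternatives. On arrays with blastocyst RNA in Cy3 alone, ACTG1 (-0.12), ACTR2 (-0.13), MYH9 (-0.12), MYL12A (-0.055), TPM3 (-0.022), TPM4 (-0.0020) and EEF1A2 (0.044) changed sign. So did ACTR2 (-0.027), ARPC3 (-0.030) and MYH9 (-0.19) without normalization, ARPC4 without background subtraction (0.0017) and in Cy5 alone (0.060), CAPZA2 as the mean of its probes (0.13) and EEF1A1 under median centring (0.17). When a replicate was left out, ARPC3 lay between -0.039 and 0.28, ARPC4 between -0.042 and 0.0028, MYH9 between -0.055 and 0.087, MYLK between -0.061 and 0.85, SDHA between -0.15 and 0.46 and TPM3 between -0.18 and 0.70. None of these was called. The causes were not tested. Other single-gene values kept direction and side of the threshold in 1269 cases, passed newly in 58 and lost the call in 75. In the fits of all 6 arrays and without the filter the mean ratios stay the same by arithmetic, so no direction could change there.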
